A study of Homo sapiens with 8 samples.

Results

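Cells obtain arginine either from the medium or by making it from citrulline. ASS1 (argininosuccinate synthase) joins citrulline and aspartate, and ASL (argininosuccinate lyase) splits the product into arginine and fumarate. In the opposite direction, ARG2, the mitochondrial arginase, cleaves arginine to ornithine and urea, and OAT (ornithine aminotransferase) turns ornithine into pyrroline-5-carboxylate (P5C). P5C is also made from glutamate by ALDH18A1 (P5C synthase). PYCR1, a mitochondrial P5C reductase, converts P5C to proline, and PRODH (proline dehydrogenase) turns proline back into P5C. Many tumours silence ASS1 and then depend on arginine from outside.

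These 7 genes were taken by name from a table of 23393 gene symbols, and all 7 were present. MDA-MB-231, an established line, derives from a human breast tumour. RNA-seq was available for 4 groups of 2 libraries each, namely parental cells in full medium (control), parental cells starved of arginine, ρ0 control cells and starved ρ0 cells. The labels describe starvation as treatment for 48 h with 0.3 µg/mL of arginine deiminase (ADI), which converts arginine to citrulline, whereas the methods of the study describe an arginine-free medium. The labels give the ρ0 cells, which are described as lacking mitochondrial DNA, as p0#27, so they are 1 derivative of the line, and the study kept them in ethidium bromide, uridine and pyruvate. Nothing states that the 2 libraries of a group came from separate cultures, so p-values measure the spread between these libraries, which may be technical.

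The libraries held between 25259503 and 31022155 counts. The 2 ρ0 control libraries differed most, with a biological coefficient of variation (BCV, the spread beyond counting noise) of 25.03%, against 1.84% to 5.16% in the other 3 groups. None of 13 genes of the mitochondrial genome was in the table, so these counts cannot show the state of the mitochondrial DNA. Of the markers of the line, VIM, CD44, CAV1 and AXL had at least 2542 counts in every library, and ESR1 and PGR had at most 6. CDH1 (E-cadherin) had 0 to 2 counts in the parental libraries and 104 to 457 in the ρ0 libraries, and GATA3 had 121 to 157 and 250 to 579. These line markers moved with the line differences reported for the 7 genes, and their part in them was not tested.

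Promoters in the RefSeq table (GRCh38.p14) could be matched for 5 of the 7 genes. The 250 bases before the transcription start are shown for the 3 genes whose window held one of the motifs searched. For ASS1 the start used is the downstream one of its 2 listed starts. Of the genes with a motif, ARG2 and ALDH18A1 were lower in ρ0 cells, and ASS1 had more counts there. OAT, whose window held none, was also lower. A link between motifs and levels was not tested. Capitals mark the E-box CACGTG, bound by basic helix-loop-helix factors such as MYC, and the cyclic AMP response element (CRE) TGACGTCA, bound by CREB and ATF factors. Both read the same on either strand.
ASS1: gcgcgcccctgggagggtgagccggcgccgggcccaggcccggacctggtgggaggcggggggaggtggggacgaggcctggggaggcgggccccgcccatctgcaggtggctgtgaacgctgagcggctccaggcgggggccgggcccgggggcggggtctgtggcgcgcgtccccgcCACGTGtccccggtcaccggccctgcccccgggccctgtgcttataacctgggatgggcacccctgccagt
ALDH18A1: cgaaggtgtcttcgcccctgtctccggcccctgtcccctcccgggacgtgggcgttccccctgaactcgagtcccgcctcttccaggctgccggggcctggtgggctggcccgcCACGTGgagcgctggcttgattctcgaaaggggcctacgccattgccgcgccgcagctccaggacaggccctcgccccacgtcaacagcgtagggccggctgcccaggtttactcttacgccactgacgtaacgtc
ARG2: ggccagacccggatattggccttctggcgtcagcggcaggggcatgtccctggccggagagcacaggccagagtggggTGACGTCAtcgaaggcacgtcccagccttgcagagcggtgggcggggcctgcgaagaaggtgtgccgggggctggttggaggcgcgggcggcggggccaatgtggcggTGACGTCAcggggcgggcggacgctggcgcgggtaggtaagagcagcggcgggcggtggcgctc

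The ASS1 window is chr9:130444711-130444960 on the plus strand, the ALDH18A1 window chr10:95656712-95656961 on the minus strand and the ARG2 window chr14:67619670-67619919 on the plus strand. The E-box begins 71 bases before the ASS1 start and 136 bases before the ALDH18A1 start, and 6.34% of the 35116 windows of the same length held one. ARG2 held 2 CREs, 172 and 64 bases before its start, and 1.65% of all windows held at least 1. The amino acid response element TGATGNAA was searched on both strands as well and was in 3.14% of all windows and in none of the windows of the 5 matched genes. The ASS1 window at the upstream start and those of ASL and OAT held none of the 3 motifs. No match of one motif overlapped a match of another. The windows shown held 24 CpG in ASS1, 24 in ALDH18A1 and 27 in ARG2 against a median of 11 over all windows. Those without a motif were similar, with 21 at the upstream ASS1 start, 22 in ASL and 27 in OAT. The matches are a description of the letters only.

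Levels are given as CPM, the count scaled to a common library size, with TMM factors that adjust for composition. ASS1 and PRODH are given by raw counts, since they had under 1 CPM in at least 1 group. For comparison between genes, CPM were divided by the length of the longest protein-coding transcript in GENCODE v29. In parental control cells the order per kilobase was OAT (98.6 and 103 CPM per kb), PYCR1 (79.2 and 81.7), ALDH18A1 (64.0 and 65.2), ARG2 (26.8 and 28.4), ASL (9.95 and 10.5), PRODH (0.122 and 0.169) and ASS1 (0.0528 and 0.152). The ranges of neighbours in this order did not overlap except those of PRODH and ASS1. In starved parental cells PYCR1 stood first, at 218 CPM per kb in both libraries. In starved ρ0 cells ASS1 stood at 11.3 and 11.7 CPM per kb, above ASL at 9.57 and 10.5. These orders rest on 2 libraries per group and were not tested.

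**Figure D1:**
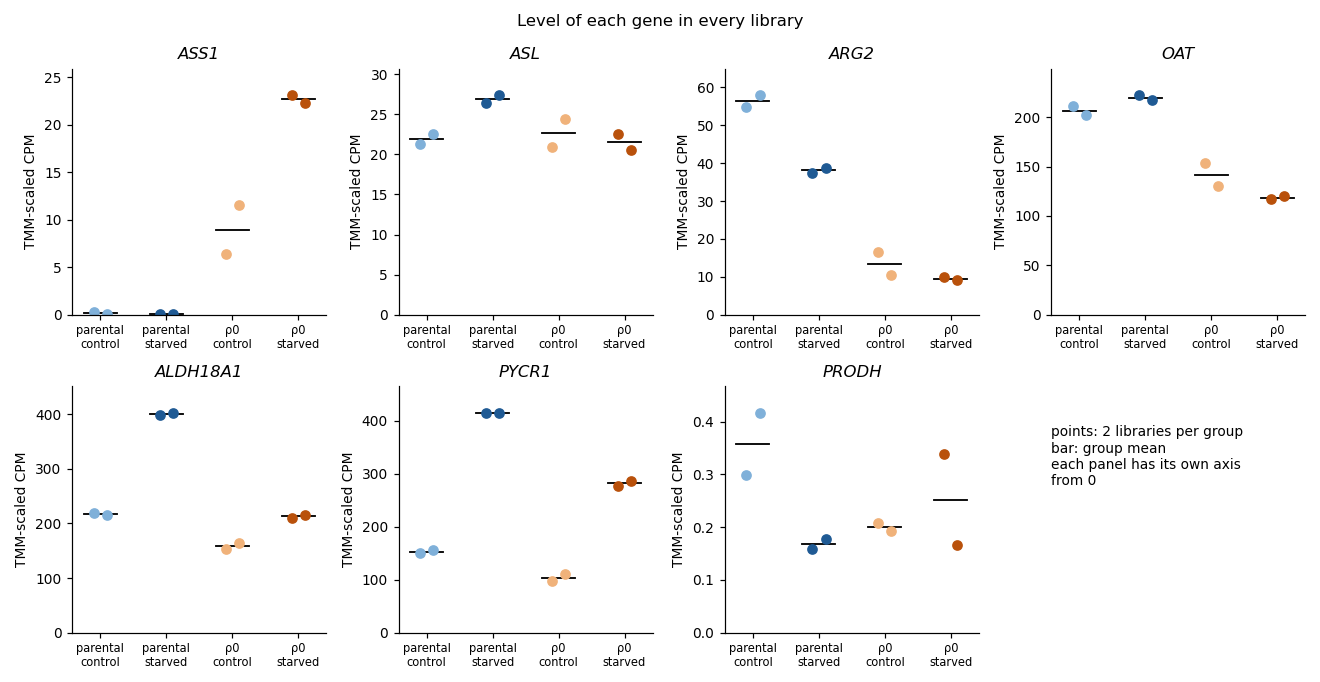
TMM-scaled CPM of the 7 genes in the 8 libraries, with the 4 groups along the x axis. Points are libraries, bars are group means of 2 libraries, and each panel has its own linear axis from 0. PYCR1 and ALDH18A1 are higher in the starved libraries of both lines, ASS1 is near 0 in the 4 parental libraries and ARG2 and OAT are lower in the ρ0 libraries.

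ASS1, the first enzyme of arginine synthesis, was nearly absent from parental cells and present in ρ0 cells. The parental control libraries held 10 and 3 ASS1 counts and the starved parental libraries 1 and 2. The ρ0 control libraries held 183 and 358 counts, and the starved ρ0 libraries 684 and 538. No library of a ρ0 group overlapped with one of a parental group, and the starved ρ0 libraries were both above the ρ0 control libraries. In CPM the means were 0.202 ± 0.14 in parental control, 0.0552 ± 0.022 in starved parental, 8.93 ± 3.7 in ρ0 control and 22.7 ± 0.59 in starved ρ0 cells (SD, n = 2). RefSeq names 14 ASS1 pseudogenes, none of which is a row of the table, so reads from them or lost to them cannot be told apart from ASS1 reads.

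To find which of the genes differed between the lines in full medium, ρ0 control cells were compared with parental control cells. For ASS1 the summed counts of 541 in ρ0 and 13 in parental control cells gave a ratio of 43.2, with a 95% interval of 25.02 to 81.6 that covers counting error only. Under starvation, the summed counts of 1222 and 3 gave a ratio of 405 (138 to 1968). ASS1 passed the filter on low counts only through the ρ0 libraries, so a gene tested in this way had to differ between the lines, and its fitted log2 fold changes of 5.40 and 8.55 are given as a description, with no test.

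ARG2, the mitochondrial arginase, was lower in ρ0 cells. It stood at 54.8 and 58.0 CPM in the parental control libraries and at 16.5 and 10.5 CPM in the ρ0 control libraries. After starvation it stood at 37.5 and 38.7 CPM in parental and at 9.97 and 9.07 CPM in ρ0 cells. All 4 parental libraries were above all 4 ρ0 libraries. ARG2 was 4.18-fold lower in ρ0 control cells (log2 fold change -2.06, standard error 0.20, adjusted p = 8.16e-05, edgeR quasi-likelihood) and 3.995-fold lower in starved ρ0 cells (log2 fold change -1.998, standard error 0.20, adjusted p = 9.02e-05). In bulk RNA, fewer cells that express a gene and less RNA per cell cannot be told apart.

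OAT, the next step from ornithine, was also lower in ρ0 cells. Its level was 211 and 202 CPM in parental control, 222 and 217 CPM in starved parental, 153 and 130 CPM in ρ0 control, and 117 and 120 CPM in starved ρ0 libraries. The log2 fold change of ρ0 against parental cells was -0.54 in full medium (standard error 0.09, adjusted p = 0.00162) and -0.89 under starvation (standard error 0.09, adjusted p = 1.19e-04, both by edgeR). The enzymes of proline synthesis were lower in ρ0 cells as well. ALDH18A1 had a log2 fold change of -0.46 in full medium (standard error 0.07, adjusted p = 0.00113) and -0.91 under starvation (standard error 0.07, adjusted p = 3.12e-05). PYCR1 had -0.57 (standard error 0.08, adjusted p = 8.12e-04) and -0.56 (standard error 0.08, adjusted p = 7.34e-04).

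ASL, the enzyme that releases arginine, did not differ detectably between the lines in full medium. It stood at 21.3 and 22.5 CPM in parental control and at 20.9 and 24.4 CPM in ρ0 control libraries, which overlap. The log2 fold change was 0.05, with a 95% interval of -0.22 to 0.31 (adjusted p = 0.742). Under starvation it was lower in ρ0 cells, at 22.5 and 20.5 CPM against 26.4 and 27.4 CPM (log2 fold change -0.32, standard error 0.11, adjusted p = 0.038). That call was lost without any 1 of 6 libraries, namely those of the parental control, starved parental and starved ρ0 groups (adjusted p = 0.0619 to 0.257), with upper quartile scaling (0.0875), without a filter (0.0848) and with the replicate number as a block (0.0545).

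Of the 5 genes tested beside ASS1, none was higher and 4 were lower in ρ0 control cells, whereas 62.3% of all 15262 tested genes passed the same threshold (adjusted p under 0.05), 30.5% as higher and 31.8% as lower. In starved cells none was higher and 5 were lower, against 66.5% of all tested genes, 32.9% as higher and 33.5% as lower. The median log2 fold change of the 5 genes was -0.54 in full medium and -0.89 under starvation, beside -0.01 for all tested genes in both cases. ARG2 was the only one of the 5 with a log2 fold change past 1, in both comparisons. Of all tested genes, 30.9% passed both thresholds in control cells, 13.6% upward and 17.3% downward, and 35.5% in starved cells, 18.7% upward and 16.8% downward. The comparisons between lines and those of starvation share libraries.

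**Figure D2:**
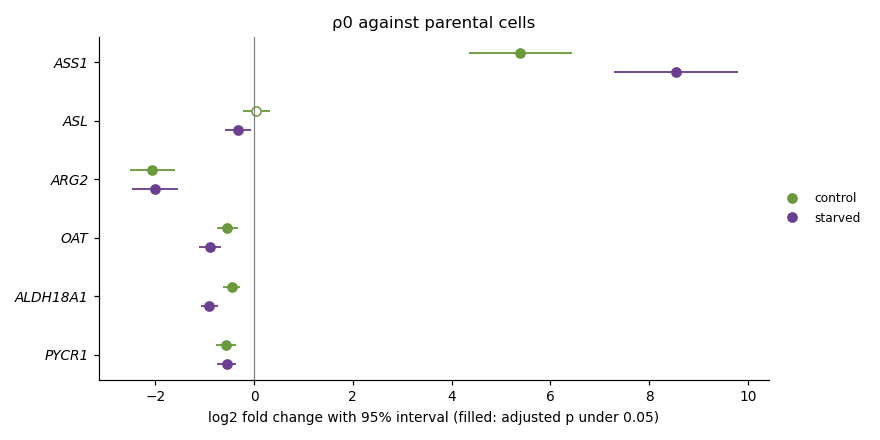
Log2 fold change of ρ0 against parental cells for the 6 tested genes, in control (green) and starved (purple) cells, with 95% intervals from the fit to all 8 libraries. Filled points have an adjusted p under 0.05. ASS1, plotted as a description, is at 5.40 and 8.55, ARG2 at -2.06 and -1.998, and the remaining genes lie between -0.91 and 0.05. The fill of the ASS1 points is not a test result, since ASS1 passed the filter only through the ρ0 libraries.

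To find how starvation changed these genes in parental cells, starved parental cells were compared with parental control cells. The 2 enzymes of proline synthesis from glutamate rose. PYCR1 stood at 151 and 155 CPM in the control libraries and at 415 and 415 CPM in the starved libraries. It rose 2.71-fold (log2 fold change 1.44, standard error 0.09, adjusted p = 1.4e-05, edgeR quasi-likelihood). ALDH18A1 stood at 219 and 215 CPM in the control and at 399 and 402 CPM in the starved libraries, a 1.85-fold rise (log2 fold change 0.88, standard error 0.07, adjusted p = 4.51e-05). For both genes the starved libraries were far above the control libraries.

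On the arginine side, ARG2 fell from 54.8 and 58.0 CPM to 37.5 and 38.7 CPM (log2 fold change -0.57, standard error 0.19, adjusted p = 0.0284). The call was lost without any 1 of the 6 libraries of the parental control, starved parental and starved ρ0 groups (adjusted p = 0.0642 to 0.122), although the log2 fold change stayed between -0.60 and -0.53. ASL went from 21.3 and 22.5 CPM to 26.4 and 27.4 CPM, with an adjusted p of 0.051 at a log2 fold change of 0.30 (95% interval 0.03 to 0.56). Without ρ0 control replicate 1 or 2 the adjusted p of ASL was 0.00102 or 3.18e-04. OAT had a log2 fold change of 0.09 (95% interval -0.13 to 0.31, adjusted p = 0.428), and its adjusted p was 0.00955 without ρ0 control replicate 2, at 0.13. ASS1 went from 13 to 3 summed counts, a ratio of 0.268 (95% interval 0.0490 to 0.976, counting error only), and was not called in edgeR's quasi-likelihood test (adjusted p = 0.15).

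Of the 6 tested genes, 2 were higher and 1 was lower in starved parental cells, whereas 65.9% of all tested genes passed the threshold, 30.4% as higher and 35.5% as lower. Their median log2 fold change was 0.19, beside -0.07 for all tested genes. PYCR1 was the only one of the 6 that passed with a log2 fold change past 1, against 34.9% of all tested genes, 12.7% upward and 22.1% downward. Without ρ0 control replicate 1 or 2, 5 or 6 genes were called, where 79.9% or 80.1% of all tested genes were.

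In ρ0 cells, the same comparison of starved with control libraries gave rises of the proline synthesis enzymes and of ASS1. PYCR1 went from 96.9 and 110.01 CPM to 277 and 287 CPM (log2 fold change 1.45, standard error 0.09, adjusted p = 9.46e-05, edgeR quasi-likelihood). ALDH18A1 went from 153 and 163 CPM to 211 and 215 CPM (log2 fold change 0.43, standard error 0.07, adjusted p = 0.00335). The starved and control libraries of both genes did not overlap. Fitted to ρ0 cells alone, the edgeR adjusted p was 0.0155 for PYCR1, 0.0441 for ALDH18A1 and 0.0428 for ASS1.

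ASS1 went from 6.35 and 11.5 CPM to 23.1 and 22.3 CPM, a 2.54-fold rise (log2 fold change 1.34, standard error 0.29, adjusted p = 0.00859). The control libraries differed from each other, and the log2 fold change was 0.98 without ρ0 control replicate 1 and 1.85 without replicate 2. Without starved ρ0 replicate 1 it was 1.34 with an adjusted p of 0.0558. ARG2 had a log2 fold change of -0.50 (95% interval -0.97 to -0.03, adjusted p = 0.0811), which was -0.13 without ρ0 control replicate 1 and -0.78 without replicate 2, where the adjusted p was 2.13e-06. OAT had -0.26 (95% interval -0.48 to -0.04, adjusted p = 0.0603), and without ρ0 control replicate 1 or 2 it was -0.14 or -0.36 and passed the threshold (0.0305 and 9.69e-06). ASL had -0.07 (95% interval -0.34 to 0.19, adjusted p = 0.648).

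In ρ0 cells 3 of the 6 tested genes were higher and none was lower, against 41.3% of all tested genes called in edgeR's quasi-likelihood test, 19.2% as higher and 22.1% as lower. At an unadjusted p under 0.05, 2 genes were lower (ARG2 and OAT), as were 26.6% of all tested genes. DESeq2 and limma-voom called 0 as lower, upper quartile scaling called OAT (adjusted p = 0.0424), and total counts only called ARG2 (0.047) and OAT (0.0208). The median log2 fold change was 0.18 over the 6 and -0.07 over the 5 other than ASS1, beside -0.02 for all tested genes. PYCR1 and ASS1 passed with a log2 fold change above 1, against 12.4% of all tested genes, 4.22% upward and 8.19% downward. Without ρ0 control replicate 2, 5 genes were called, ARG2 and OAT as lower, where 62.4% of all tested genes were called.

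**Figure D3:**
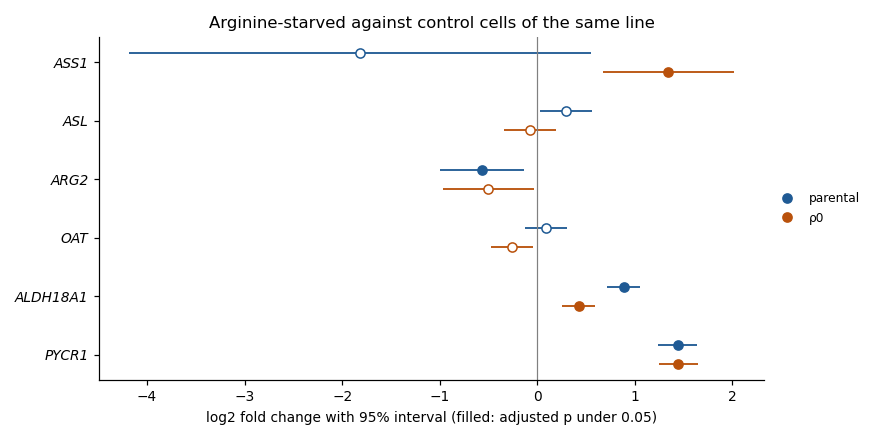
Log2 fold change of starved against control cells for the 6 tested genes in parental (blue) and ρ0 cells (orange), with 95% intervals. Filled points have an adjusted p under 0.05. The points of PYCR1 coincide at 1.44 and 1.45, those of ALDH18A1 are at 0.88 and 0.43, and those of ASS1 are at -1.81 and 1.34.

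Whether the lines responded differently was tested as an interaction, the ρ0 response minus the parental response. For ALDH18A1 the rise was smaller in ρ0 cells, with a difference of -0.46 (standard error 0.10, adjusted p = 0.0114, edgeR quasi-likelihood). The difference lay between -0.50 and -0.44 with any 1 library left out, but the adjusted p passed 0.05 without parental control replicate 2, either starved parental library or either starved ρ0 library (0.0515 to 0.0638). For PYCR1 the difference was 0.01 on the log2 scale, with a 95% interval of -0.27 to 0.29 (adjusted p = 0.98), so any difference within these limits was not detectable.

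For ASS1 the fitted difference was 3.16 (standard error 1.03, adjusted p = 0.044), a value that is not firm, since ASS1 was tested only through its ρ0 counts. The parental side of this difference rests on 16 counts in 4 libraries, 13 in control and 3 in starved cells. The adjusted p was 0.282 without parental control replicate 1, at a difference of 2.19, and 0.134 or 0.109 without starved parental replicate 1 or 2. It was 0.0798 or 0.0756 without starved ρ0 replicate 1 or 2, and 0.0718 with limma-voom. ASL (-0.37, 95% interval -0.74 to 0.01), OAT (-0.35, -0.66 to -0.04) and ARG2 (0.07, -0.57 to 0.70) were not called, with adjusted p-values of 0.108, 0.0715 and 0.877. Of the 5 genes other than ASS1, 1 was called lower and none higher, whereas 40.4% of all tested genes were called, 21.6% as higher and 18.8% as lower. A difference past 1 was called for none of these 5 and for 19.9% of all tested genes, 13.3% upward and 6.62% downward. With ASS1 counted, 2 genes were called, 5 or 4 without ρ0 control replicate 1 or 2 (65.9% or 59.5% of all tested genes), 1 without either parental control library and 0 without any 1 starved library of either line. Without ρ0 control replicate 1 the difference of ARG2 was 0.44 (adjusted p = 0.00457), and without replicate 2 it was -0.25 (0.0732).

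PRODH, which breaks proline down, was at the limit of detection. The libraries held 10 and 12 counts in parental control, 4 and 5 in starved parental, 6 and 6 in ρ0 control, and 10 and 4 in starved ρ0 cells. The parental groups did not overlap, and the ρ0 groups did. PRODH did not pass the filter on low counts. The ratio of starved to control counts was 0.476 in parental cells (95% interval 0.193 to 1.07) and 1.30 in ρ0 cells (0.559 to 3.08), where the intervals cover counting error only. When all 20083 genes with a count were tested, PRODH had adjusted p-values between 0.156 and 0.691 in the 5 comparisons (edgeR's quasi-likelihood test).

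The steps around these enzymes were followed in a list of 22 further genes, of which all were in the table and 17 were tested. Of the 17, 3 were higher and 6 lower in starved parental cells, and 4 were higher and 2 lower in starved ρ0 cells. Their median log2 fold change was -0.31 in parental and 0.08 in ρ0 cells, beside -0.07 and -0.02 for all tested genes. The parental median is the value of NOS3, which had 4 to 9 counts in the parental libraries. The ρ0 median is the value of AGMAT, and NOS1, with 0 counts in every ρ0 library, entered it at 0. Between the lines, 3 were higher and 9 lower in ρ0 control cells, and 2 were higher and 8 lower in starved ρ0 cells. Of all tested genes, 30.4% were higher and 35.5% lower in starved parental cells, and 19.2% and 22.1% in starved ρ0 cells. Between the lines the shares were 30.5% and 31.8% in control cells, and 32.9% and 33.5% in starved cells. AGMAT and NOS3 passed the filter on low counts only through ρ0 libraries, and NOS1 and NOS2 only through parental control libraries. Their directions between the control groups were therefore set by the filter, as was that of AGMAT between the starved groups. The same holds for the falls of NOS1 and NOS2 in starved parental cells. The counts of higher and lower genes above include these calls, which are a description, with no test.

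Among the enzymes that share a step with the 7 genes, PYCR3 and ALDH4A1 fell in parental cells. PYCR3, a cytosolic P5C reductase listed in the table as PYCRL, went in parental cells from 24.1 and 26.8 CPM to 10.0 and 9.78 CPM (log2 fold change -1.36, standard error 0.32, adjusted p = 0.0065). In ρ0 cells PYCR3 went from 18.0 and 38.9 CPM to 15.5 and 16.9 CPM (adjusted p = 0.07), with the control libraries far apart. The difference between the lines' responses was not detectable for PYCR3 (0.55, 95% interval -0.48 to 1.57). ALDH4A1, which oxidises P5C to glutamate, fell in both lines, by 0.81 in parental (adjusted p = 0.00119) and by 0.88 in ρ0 cells (adjusted p = 0.00264) on the log2 scale. ARG1, the cytosolic arginase, had at most 4 counts in any library, and PRODH2 at most 1.

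Of the genes of arginine entry and of ornithine use, SLC7A1 (the cationic amino acid transporter CAT1) and ODC1 (ornithine decarboxylase, the entry to polyamines) rose in both lines. SLC7A1 had log2 fold changes of 1.35 in parental and 1.203 in ρ0 cells (adjusted p = 2.4e-04 and 0.00125), and ODC1 of 1.91 and 1.73 (0.00153 and 0.00538). The ρ0 control libraries of ODC1 lay far apart, at 107 and 250.3 CPM, against 597 and 584 CPM in the starved ρ0 libraries. SLC7A2, a second cationic amino acid transporter, rose in ρ0 cells from 23.9 and 51.6 CPM to 147 and 147 CPM (log2 fold change 1.96, adjusted p = 0.00228). In parental cells it stood at 269 and 230 CPM in control and 285 and 290 CPM in starved libraries, and the responses differed by 1.75 (standard error 0.42, adjusted p = 0.0141, edgeR's quasi-likelihood test). NAGS, which makes the activator of the urea cycle's first enzyme, rose in ρ0 cells from 10.4 and 8.43 CPM to 26.5 and 24.6 CPM (log2 fold change 1.44, adjusted p = 2.36e-04). In parental cells NAGS rose by 0.50 (adjusted p = 0.00688), and the responses differed by 0.94 (standard error 0.17, adjusted p = 0.00502).

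Of the 2 tested genes of the urea cycle, CPS1 fell in parental cells and NAGS rose. Of 7 tested genes listed under arginine use, NOS1, NOS2 and AZIN2 were called lower and 4 were not called. NOS1 and NOS2 passed the filter on low counts only through the parental control libraries. Genes kept in this way had to be lower in starved parental cells, so these calls are a description, with no test. CPS1, the first enzyme of the urea cycle, fell in parental cells from 25.03 and 25.4 CPM to 8.40 and 9.64 CPM (log2 fold change -1.48, adjusted p = 0.00157). In ρ0 control libraries CPS1 stood lower, at 5.10 and 2.60 CPM, and starvation gave no call there (log2 fold change -0.07, adjusted p = 0.866). The responses of CPS1 differed by 1.41 (standard error 0.39, adjusted p = 0.0241, edgeR's quasi-likelihood test). AZIN2, an antizyme inhibitor, fell in parental cells by 1.28 on the log2 scale (adjusted p = 2.67e-04), and the ρ0 response was higher by 1.45 (adjusted p = 0.00263, both by edgeR). NOS1 (neuronal nitric oxide synthase) had 121 and 99 counts in parental control, 4 and 6 in starved parental and 0 in each of the 4 ρ0 libraries. NOS2 (inducible nitric oxide synthase) had 16 and 14 counts in parental control libraries and at most 1 in every other library. AGMAT (agmatinase) had 0 to 5 counts in the parental and 110 to 244 in the ρ0 libraries. Its line difference, like that of ASS1, was set by the filter and is a description.

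**Figure D4:**
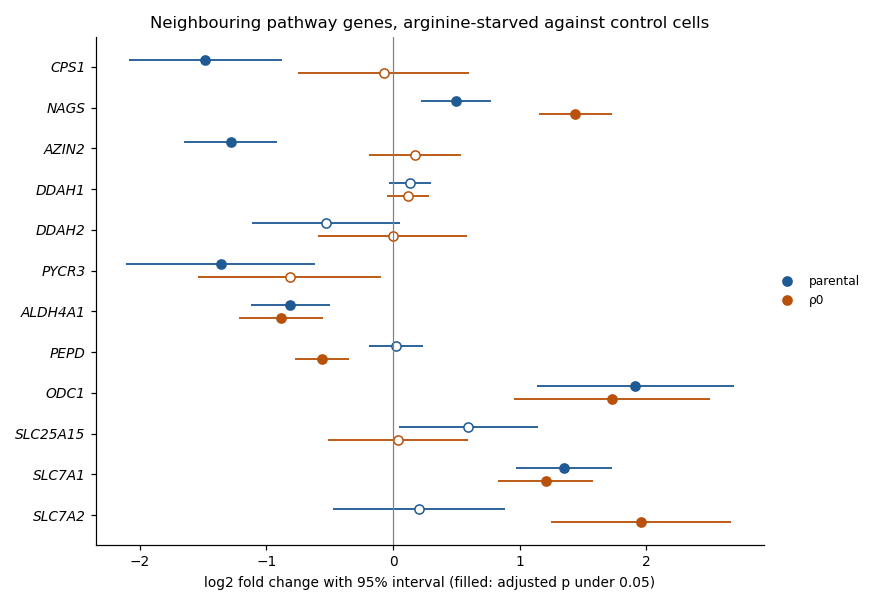
Log2 fold change of starved against control cells for 12 of the 17 tested neighbouring genes in parental (blue) and ρ0 cells (orange), with 95% intervals. Filled points have an adjusted p under 0.05. Among the genes not plotted, NOS1, NOS2, NOS3 and AGMAT had low counts in at least 1 line. ODC1, SLC7A1 and NAGS are filled and above 0 in both lines, and ALDH4A1 is filled and below 0 in both lines.

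For each tested gene, the 2 genes with the most similar profile were found by the mean absolute difference of centred log2 CPM over the 8 libraries, among genes of at least 10 CPM. ASS1 was nearest to CYP1B1 (0.41) and ELF3 (0.43). CYP1B1 held 230 to 307 counts in the parental and 11156 to 28633 in the ρ0 libraries, and ELF3 5 to 23 and 935 to 1679. ARG2 was nearest to SHOX2 (0.06) and SUDS3 (0.08), OAT to TFPI (0.03) and SLIRP (0.05), and ASL to RQCD1 and NIPA2 (both 0.04). ALDH18A1 was nearest to SMNDC1 (0.03) and USP10 (0.04), and PYCR1 to KTN1-AS1 and YARS (both 0.07), the latter a tyrosyl-tRNA synthetase. The distances describe these 8 libraries and were not tested.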

How the data were processed

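The deposited data are 1 table of read counts for 8 libraries, raw and with gene symbols as row names. The submitters' processing notes name hg19, Bowtie and Partek. Versions, annotation and strand setting are not given in the sources used here. No column was left unmapped. The 7 genes and the list of 22 neighbouring genes were chosen with earlier results of these data known.

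The analysis used edgeR 4.0.16 under R 4.3.3. Genes passing filterByExpr (15262) were scaled by TMM, and a quasi-likelihood model with a mean for each group took in all 8 libraries (4 residual and 3.40 prior degrees of freedom). P-values were adjusted by Benjamini-Hochberg over all tested genes at a threshold of 0.05. The standard error was derived from the log2 fold change and its F statistic, and 95% intervals use the fit's degrees of freedom. Ratios of summed counts have exact binomial intervals. Named genes are the 7, neighbouring genes that share an enzymatic step with them or passed the threshold with a log2 fold change past 1, and the 2 most similar profiles per gene. A single such neighbouring gene is not reported here by name. Alternatives were 3 other scalings, no filter, DESeq2 1.42.0, limma-voom (limma 3.58.1), a replicate block, a fit to each line alone and leaving out each library. The fit was also run on simulated counts with the same spread in all groups. The groups here differ in spread, so that run is no check of the calls, and its outcome is not reported here.

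Libraries of 25259503 to 31022155 counts leave ASS1 in parental cells and PRODH in all cells limited by counting noise. With the spread of the 2 ρ0 control libraries in the shared estimate, small changes between the other groups are less firmly called. In comparisons with ρ0 control cells, the common BCV of 12.4% was below the 25.03% of that pair. P-values of those comparisons may therefore be too small. The replicate numbers gave no sign of pairing between the libraries, although nothing states how the cultures were handled.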

Additional observations from a re-analysis of the deposited data

Results flagged for a closer look

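The interaction test of edgeR called 2 genes. For ALDH18A1 the ρ0 minus parental difference in response to arginine starvation was -0.458 (log2 scale), with a rise of 0.88 in parental and 0.43 in ρ0 cells, and its adjusted p of 0.0114 became 0.0515 to 0.0638 without any 1 of 5 libraries (parental control replicate 2 and the 4 starved libraries). For ASS1 the difference was 3.158, with -1.81 in parental and 1.34 in ρ0 cells, but ASS1 was tested only through its ρ0 counts, and the parental value rests on 13 counts in control and 3 in starved libraries. Its adjusted p of 0.044 became 0.282 without parental control replicate 1, 0.134 or 0.109 without starved parental replicate 1 or 2, 0.0798 or 0.0756 without starved ρ0 replicate 1 or 2 and 0.0718 with limma-voom.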

How the results depend on the processing

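Of 221 values of the 6 tested genes under other scalings, filters, tests and fits, 206 kept their direction and their side of the threshold, 4 no longer passed it, 8 newly passed it and 3 changed sign. The log2 fold change of OAT in parental cells turned to -0.031 with upper quartile scaling and -0.073 with total counts only, and that of ASL between the control groups turned to -0.051 with total counts only. These values did not pass the threshold in any of these fits, and the cause was not tested. The number of the 6 genes called was 5 in the fit to parental cells alone for starvation (83% of all genes tested there), 5 with total counts only for starvation in ρ0 cells (41.4%), and 1 with limma-voom for the interaction (41.3%). With 1 library left out and the lone library of a group assumed to vary like the others, it ranged from 2 to 6 in parental cells, from 2 to 5 in ρ0 cells and from 0 to 5 for the interaction, and was 5 between the control groups and 5 or 6 between the starved groups. In these fits the sign turned for ASL in ρ0 cells (range -0.175 to 0.060), for ASL between the control groups (-0.015 to 0.155), for ARG2 in the interaction (-0.250 to 0.436) and for PYCR1 in the interaction (-0.078 to 0.076), and no value of turned sign passed the threshold. Correlations of the deviations of same-numbered libraries lay between -0.05 and 0.04 over 6 pairs of groups, so the numbers gave no sign of pairing. With the replicate number as a block, the counts of genes called were 3, 3, 2, 5 and 5, in the order of the comparisons starved parental, starved ρ0, interaction, control lines and starved lines. All counts given here between the lines include ASS1, whose line difference was set by the filter and is a description. Without ASS1, the main fit called 4 genes between the control groups and 5 between the starved groups. Upper quartile scaling moved the median of all genes from -0.07 to -0.19 in starved parental cells and total counts only to -0.23. Starvation in ρ0 cells called 6308 genes, 3127 in the fit to that line alone, 9784 or 9720 without ρ0 control replicate 1 or 2 and 3198 or 3169 without starved ρ0 replicate 1 or 2. Without ρ0 control replicate 1 or 2, 10277 or 9269 genes were called in the interaction against 6167, and without any 1 of the other 6 libraries 3513 to 3952. ASS1 in parental cells and PRODH in all groups are limited by their counts.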
